A study of Macaca fascicularis with 2 samples.

Results

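*COL10A1* and 5 genes linked to its control, *RUNX1*, *RUNX2*, *RUNX3*, *MEF2C* and *PTH1R*, were examined by name in single cells of articular cartilage (AC) and nucleus pulposus (NP). Of these 6 genes, 5 were among the 21371 genes counted, and *RUNX1* was not analysed here. The cells came from wild type male cynomolgus monkeys, 3 years old. Per the authors' description, 1 animal gave AC and NP and a second animal gave AC only. Per the labels, all were pooled in 1 expression library, in which 4 surface tags, A951 to A954, mark the cells. Sorted live cells were sequenced by TAS-seq, a bead-based method that amplifies the cDNA of each cell without molecular identifiers. No source used here pairs the tags with the 3 listed tissue samples, so tags are compared only with each other. The library held 5723 cells with 5723 distinct barcodes. Those marked by 1 tag that passed the limits on quality numbered 5653, and the median cell had 198432 reads on 3827 genes.

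Type X collagen, encoded by *COL10A1*, is the matrix protein that marks hypertrophic chondrocytes in the growth plate. The transcription factors RUNX2 and RUNX3 and the MADS-box factor MEF2C drive hypertrophy there. PTH1R, the receptor of parathyroid hormone and of PTHrP, restrains it, and PTHrP itself is under the control of Indian hedgehog. Hypertrophic chondrocytes then make genes of mineralising matrix such as *IBSP*, *ALPL* and *SPP1*. In articular cartilage, type X collagen is known from the calcified zone and from osteoarthritis.

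Cells were divided by reads of 3 genes. Notochordal cells were the 310 cells with 5 or more reads of *KRT19*, a keratin gene, and 5 or more of *TBXT*, the notochord transcription factor. *COL10A1*-positive cells were the 79 other cells with 3 or more *COL10A1* reads, and 5264 cells remained. *COL2A1*, the main cartilage collagen, had 3 or more reads in 100% of the 5264 cells and of the 79 *COL10A1*-positive cells. It was at 20038 and 21698 rpm (reads of a gene per 1000000 reads, pooled over the cells of a set). In notochordal cells *COL2A1* was at 1269 rpm. The 3 sets differed in depth, with medians of 186370 reads in notochordal, 261553 in *COL10A1*-positive and 198429 in remaining cells. The values are reads and not molecules, so the 95% intervals below cover counting error only. With 1 library there is no replicate check, and no p-value is given.

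*COL10A1* was rare, and its reads were gathered in few cells. It had no read in 5430 of the 5653 cells, 1 read in 127, 2 reads in 15 and 3 reads in 3. The 81 cells with 3 or more reads held 94.4% of all 2801 *COL10A1* reads. Of these 81 cells, 20 had 3 to 9 reads, 29 had 10 to 29, 28 had 30 to 99 and 4 had 100 or more. The 79 *COL10A1*-positive cells had a lowest value of 3, a median of 24 and a highest of 160 reads, or 5.38, 77.9 and 804 rpm within the cell. Most positive cells thus lay well above the limit, while the 142 cells with 1 or 2 reads outnumbered the 81 at or above it.

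**Figure D1:**
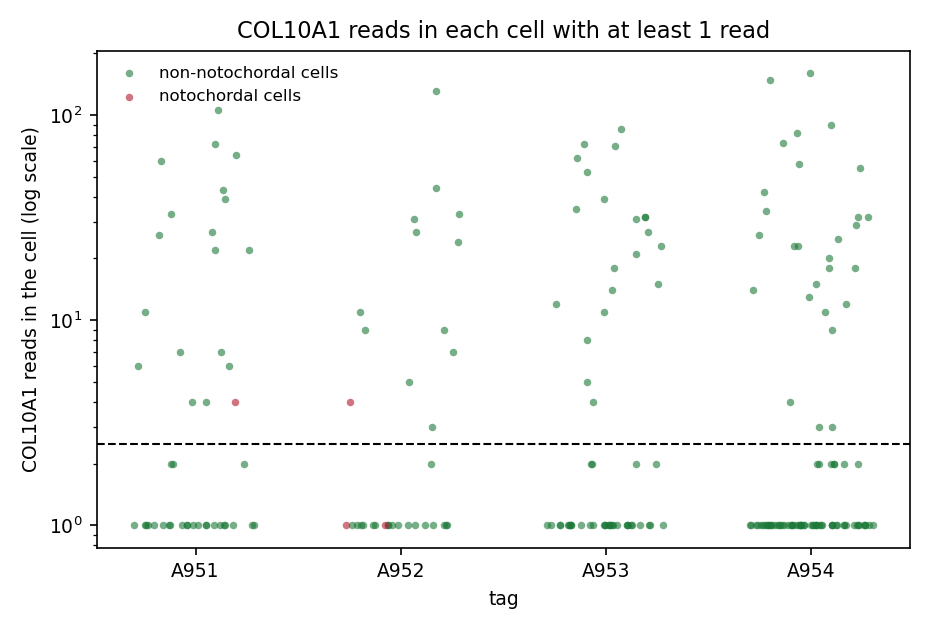
*COL10A1* reads in each cell with at least 1 read (vertical log scale), by tag (horizontal, points spread sideways); green points are non-notochordal cells, red points notochordal cells, and the dashed line separates 2 from 3 reads. Cells with 3 or more reads occur under every tag and reach 160 reads, and 127 cells have 1 read.

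The share of cells with 3 or more *COL10A1* reads was 1.43% (95% Wilson interval 1.15 to 1.78%). It was 1.91% (1.23 to 2.96%) under A951 and 1.16% (0.677 to 1.97%) under A952. It was 1.53% (1.00 to 2.32%) under A953 and 1.30% (0.900 to 1.87%) under A954. The 4 intervals overlapped, so a difference between tags was not detectable at this depth. The share depended on depth, with 0.374% of non-notochordal cells among the 1336 cells with fewest reads and 2.54% among the 1336 with most. Among cells thinned to 50000 reads, with 207 shallower cells left out, it was 0.936%. For comparison, *CD3E*, a T cell gene that chondrocytes should lack, had 1 or more reads in 7.31% and 3 or more in 0.874% of the 5264 remaining cells. The 2.66% of remaining cells with 1 or 2 *COL10A1* reads lay below the *CD3E* share, and no expression is read from them. *CD3E* reached 123 reads in 1 remaining cell, and the part of stray RNA in either share was not tested.

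Few *COL10A1* reads lay in notochordal cells. The notochordal cells had 10 reads in 4 of 310 cells (1.29%), against a read in 4.10% of all other cells. The share with 3 or more reads was 0.645% (2 of 310 cells, 0.177 to 2.32%) in notochordal and 1.48% (1.19 to 1.84%) in all other cells. These 2 intervals overlapped, so a difference in this share was not detectable. *CD3E* was itself at 4.39 rpm in notochordal against 1.07 rpm in remaining cells, so it sets no background for notochordal cells. *COL10A1* was at 0.151 rpm in notochordal and 2.19 rpm in all other cells, a log2 ratio of -3.85 (-4.92 to -2.97). It was lower under both tags with 10 or more notochordal cells, at -3.17 under A951 and -4.06 under A952.

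Across the genes, notochordal cells differed widely from all other cells. At least a 2-fold higher level was seen for 24.5% of the 13495 genes compared and a 2-fold lower level for 13.6%. Against these shares, *RUNX3* and *RUNX2* were at least 2-fold higher, *COL10A1* and *MEF2C* at least 2-fold lower, and *PTH1R* was within 2-fold. The median log2 ratio of the 5 genes was -0.41, against 0.26 over all genes compared, but it was -1.59 without A952 and -0.049 with means over cells.

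*MEF2C* was at 3.44 rpm under A951 and 14.4 rpm under A952 in notochordal cells. In all other cells it was at 54.8, 60.5, 55.9 and 50.8 rpm under A951 to A954. Both notochordal values lay below all 4 others, and the pooled values of 12.0 and 54.1 rpm gave a log2 ratio of -2.17 (-2.28 to -2.07). Fewer notochordal cells had 3 or more reads as well, 7.42% against 25.0%.

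*RUNX2*, the main activator of hypertrophy, was at 8.13 rpm in notochordal and 3.38 rpm in all other cells, a log2 ratio of 1.27 (1.14 to 1.40). This value rested on A952. Notochordal cells were at 10.1 rpm under A952 against 4.03 rpm in the other cells of that tag, and at 1.23 rpm under A951 against 2.93 rpm. The 2 tags thus went in opposite directions, and without A952 the log2 ratio was -1.59. A single cell held 20.9% of the notochordal *RUNX2* reads.

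*RUNX3*, a relative of *RUNX2* that also acts in lymphoid cells, was at 14.0 rpm in notochordal and 1.12 rpm in all other cells, a log2 ratio of 3.65 (3.53 to 3.77). It was higher under A951 (3.36 against 0.737 rpm) and A952 (16.9 against 1.80 rpm), but 85.4% of the notochordal reads under A951 lay in 1 cell. Without the highest cell on each side the A951 values were 0.496 and 0.663 rpm, which turned the direction, and the A952 values 9.71 and 1.44 rpm. The reads were concentrated, since 12 of 310 notochordal cells had 3 or more and 1 cell held 39.8% of the reads. Over all tags, the log2 ratio without the highest cell on each side was 3.09. *CD3E* had 3 or more reads in 3.55% of notochordal cells, beside 3.87% for *RUNX3*. Of 5 immune marker genes, 3 were at least 2-fold higher in notochordal cells, beside 24.5% of all genes. The 5 summed to 28.0 against 23.0 rpm, and 1 of them, *CD68*, was at 9.64 against 17.5 rpm in remaining cells. Of 4 mural and muscle marker genes, 2 were at least 2-fold higher and 1 at least 2-fold lower, summing to 80.6 against 12.1 rpm. The part of cells with these markers in the *RUNX3* value was not tested.

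*PTH1R* was at 130 rpm under A951 and 75.1 rpm under A952 in notochordal cells, and at 123, 178, 121 and 81.1 rpm in the other cells under A951 to A954. These values overlapped. The log2 ratio was -0.41 (-0.45 to -0.37) over all cells, 0.08 under A951 and -1.24 under A952, so the sign differed between the tags. The share with 3 or more reads was 28.7% of notochordal and 26.7% of all other cells.

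**Figure D2:**
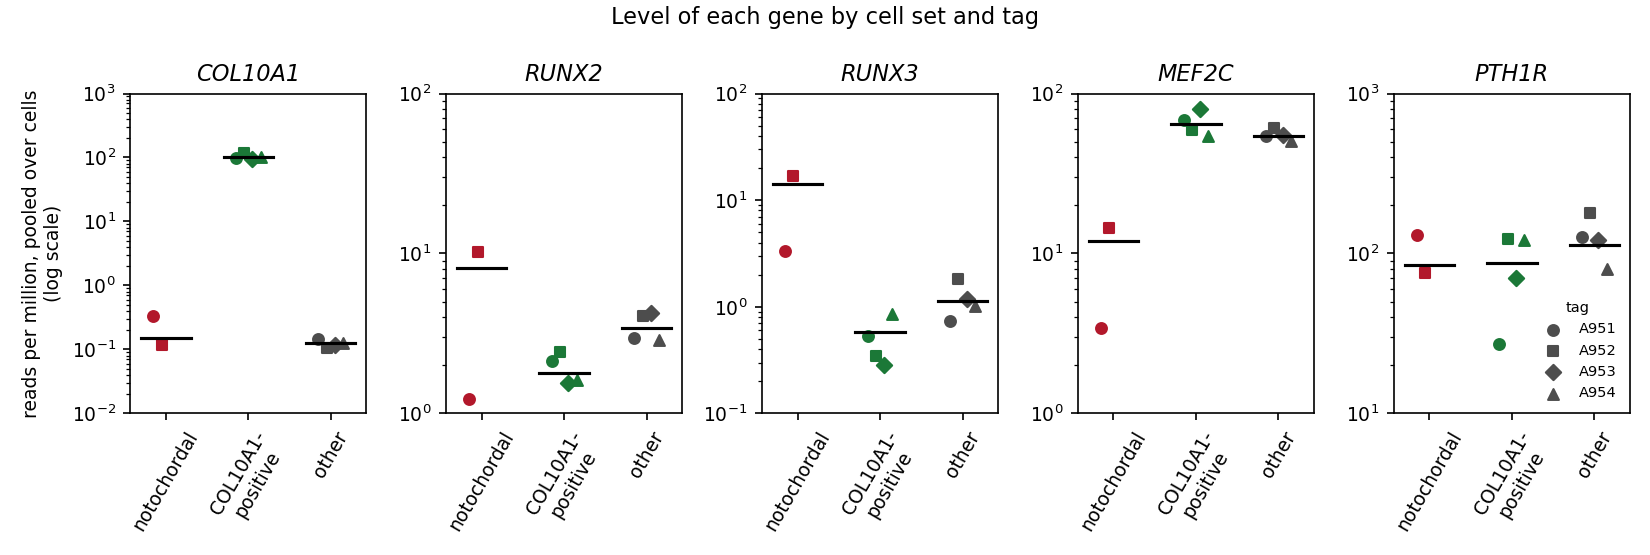
Level of each gene in rpm pooled over cells (vertical log scale, a separate scale for each gene) in notochordal (red), *COL10A1*-positive (green) and remaining cells (grey); symbols are tags with 10 or more cells of the set and lines are all tags together. *MEF2C* is lower in notochordal cells under A951 and A952, whereas *RUNX2* and *PTH1R* order the sets differently in different tags, and *COL10A1* itself chose the green cells.

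The *COL10A1*-positive cells were next compared with the 5264 remaining non-notochordal cells, to see whether the regulators moved with *COL10A1*. Over the 13098 genes compared, 5.27% were at least 2-fold higher and 17.2% at least 2-fold lower in the 79 cells. With simulated reads, 7.64% of the more abundant genes without a difference passed 2-fold in this comparison. None of the 4 regulators, *RUNX2*, *RUNX3*, *MEF2C* and *PTH1R*, reached a 2-fold difference in either direction, although *RUNX3* and *RUNX2* lay just short of it. This depended on the processing, as 1 was at least 2-fold lower with means over cells (*RUNX3*, -1.23) or with depth weights (*RUNX2*, -1.09). Without A951 these were *RUNX2* (-1.03) and *RUNX3* (-1.04), and without A954 *RUNX3* (-1.67) and *PTH1R* (-1.10). Their median log2 ratio was -0.64, against -0.12 over all genes compared, and it was -1.04 without A954, -0.26 from 1 or more *COL10A1* reads and -0.16 with means over cells.

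*RUNX2* was at 2.14, 2.43, 1.55 and 1.62 rpm in *COL10A1*-positive cells under A951 to A954, and at 2.96, 4.05, 4.23 and 2.87 rpm in remaining cells. The positive cells were lower within each tag and did not overlap with the remaining cells across tags. These values rested on 12, 7, 11 and 17 reads in positive cells. The interval of the log2 ratio included no difference under A951 (-1.43 to 0.35) and A952 (-2.06 to 0.31), but not under A953 or A954. These intervals cover counting error and not the spread between cells. The pooled values were 1.80 and 3.41 rpm, a log2 ratio of -0.92 (-1.37 to -0.51). The share of cells with 1 or more *RUNX2* reads went the other way, 43.0% (32.7 to 54.0%) of positive and 27.4% (26.2 to 28.6%) of remaining cells, and after thinning to 50000 reads the shares were 9.09% and 8.27%. The mean of log2(rpm + 1) per cell was also higher in positive cells, 0.991 against 0.740. No order is read from these shares or from the pooled levels. Cells with 3 or more *RUNX2* reads made up 3 of 79 positive cells (3.80%) and 2.68% of the remaining cells, and the *RUNX2* reads of the 3 cells came to between 3.16 and 8.08 rpm within the cell, against a median of 22.8 rpm in the 141 remaining cells with 3 or more.

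*RUNX3* had 15 reads in 12 of the 79 cells and in no cell 3 or more. It was at 0.575 rpm in positive and 1.13 rpm in remaining cells, a log2 ratio of -0.98 (-1.82 to -0.25). The ratio was 0.24 when positive cells were taken from 1 or more *COL10A1* reads, and 15.2% of positive and 12.4% of remaining cells had a *RUNX3* read, so no order is read. In remaining cells 12.4% had 1 or more *RUNX3* reads and 0.399% had 3 or more, the first above and the second below the *CD3E* shares of 7.31% and 0.874%, so these shares do not separate *RUNX3* from background. The 21 remaining cells with 3 or more *RUNX3* reads had a median of 67.7 and a highest value of 888 rpm within the cell.

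*MEF2C* was at 68.6, 59.0, 79.8 and 54.4 rpm in *COL10A1*-positive cells and at 54.4, 60.6, 55.4 and 50.7 rpm in remaining cells under A951 to A954. The ranges overlapped, and the log2 ratio was 0.27 (0.20 to 0.34), between -0.04 and 0.53 within tags, where 1 cell held 37.1 to 55.3% of the positive cells' reads. *MEF2C* had 3 or more reads in 36.7% (26.9 to 47.7%) of positive and 24.8% (23.7 to 26.0%) of remaining cells. The positive cells were deeper, and after thinning to 50000 reads the shares with 1 or more reads were 33.3% and 29.1%.

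*PTH1R* was at 27.3, 122, 70.0 and 121 rpm in *COL10A1*-positive cells, and at 126, 179, 122 and 80.4 rpm in remaining cells. It was lower in positive cells under A951, A952 and A953 and higher under A954. The log2 ratio was -0.37 (-0.43 to -0.31) in all, -2.21 under A951 and 0.59 under A954. One cell held 19.0% of the *PTH1R* reads of positive cells.

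Genes of late hypertrophy and mineralising matrix were examined in *COL10A1*-positive cells. Of 13 genes listed, 11 were counted (not *VEGFA* and *PANX3*), and 10 had enough reads for a ratio (not *IHH*). Of these 10, 0 were at least 2-fold higher and 6 at least 2-fold lower in pooled rpm, beside 5.27% and 17.2% of all genes. The 6 include *MMP13*, which had a read in under 1% of kept cells and was not among the genes behind these shares. Their median log2 ratio was -1.34, against -0.12 over all genes. *IBSP*, bone sialoprotein, was at 0.345 rpm in positive and 30.6 rpm in remaining cells (log2 ratio -6.47), with 41.8% of the reads of remaining cells in 1 cell. *ALPL*, the tissue phosphatase of mineralising cells, was at 0.689 and 4.35 rpm (-2.66). *DMP1*, an acidic matrix protein of osteocytes, was at 0.192 and 5.79 rpm (-4.92). *PHEX*, an osteocyte peptidase, was at 1.34 and 6.25 rpm (-2.22), with 68.6% of the positive cells' reads in 1 cell. Without the highest cell on each side *PHEX* was at 0.427 and 6.02 rpm. *BGLAP*, osteocalcin, was within 2-fold at 14.5 and 19.8 rpm, with 56.7% of the positive cells' reads in 1 cell. Without the highest cell on each side it was at 6.40 and 18.5 rpm, a log2 ratio of -1.53.

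Several of these genes were carried by few cells. *SPP1*, osteopontin, was at 255 and 810 rpm (-1.66), but 73.5% of the positive cells' reads lay in 1 cell, and 82.3% of positive and 65.2% of remaining cells had 3 or more reads. *MMP13*, collagenase 3, had 1 read in the 79 cells. *IHH*, Indian hedgehog, had 0 reads in the 79 cells, which allows a share of up to 3.80% of cells with a read, and 26 reads in the 5264 remaining cells. *ENPP1* and *ANKH*, which control pyrophosphate, were at 73.5 and 142 rpm (-0.95) and at 887 and 866 rpm (0.03), with 3 or more *ANKH* reads in 94.9% and 92.7% of cells. Few cells carried *IBSP*, *ALPL* and *DMP1*, with 3 or more reads in 1.44%, 1.18% and 1.75% of remaining cells and in 0, 2 and 0 of the 79 cells. A read was found in 10.1% of positive and 10.0% of remaining cells for *IBSP*, 12.7% and 10.2% for *ALPL*, 5.06% and 4.35% for *DMP1*, and 7.59% and 6.25% for *BGLAP*. These shares did not follow the pooled levels, and no order is read from them.

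Of 10 RUNX partners and regulators, 1 was at least 2-fold higher and 4 at least 2-fold lower in pooled rpm, beside 5.27% and 17.2% of all genes. *SMAD1*, a BMP signal mediator, was the higher gene (55.0 against 22.3 rpm, log2 ratio 1.30). *DLX5* (3.45 against 9.73 rpm), *DLX6*, *NKX3-2*, a repressor of hypertrophy with 0 reads in the 79 cells, and *WWTR1* (40.4 against 90.1 rpm) were the lower genes. The shares of cells with a read did not all follow, at 59.5% of positive and 53.5% of remaining cells for *WWTR1*, 12.7% and 14.5% for *DLX5*, and 5.06% and 2.55% for *DLX6*. *NKX3-2* had a read in 1.29% of remaining cells, and 0 of 79 cells allows up to 3.80%, so a difference in its share was not detectable. *CBFB*, the partner subunit of all RUNX proteins, was at 73.9 and 78.7 rpm. None of the 7 genes of the MEF2 family and its repressors reached 2-fold, among them *MEF2A* (564 against 547 rpm) and *HDAC4*, a class IIa deacetylase that represses MEF2C (31.1 against 34.2 rpm).

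In the PTHrP and hedgehog loop, 6 of 8 genes were counted (not *GNAS* and *GLI3*). *GLI2*, a hedgehog transcription factor, was at least 2-fold lower (1.34 against 5.78 rpm, log2 ratio -2.11), although 34.2% of positive and 34.7% of remaining cells had a read. *PTHLH*, which encodes PTHrP, was at 70.8 and 44.3 rpm (0.68) and *GLI1*, the hedgehog target gene, at 10.3 and 9.34 rpm (0.14). None of the 9 genes of chondrocyte identity reached 2-fold, with log2 ratios from 0.04 to 0.52 and a median of 0.10. *SOX9*, the master factor of chondrocytes, was at 371 and 346 rpm, *ACAN*, the aggrecan gene, at 4396 and 3959 rpm, and *FGFR3*, a growth plate receptor, at 134 and 93.3 rpm.

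The genes that differed most per cell between the 79 cells and the remaining cells are named next. They were chosen by the difference of the mean log2(rpm + 1) per cell, in the same direction in all 4 tags, so their values are a description. *CRISPLD1*, a secreted CRISP-family protein, led the higher genes with means of 7.82 and 5.62 and a read in 96.2% and 77.9% of cells. *CHRDL2*, a chordin-like BMP binding protein, followed with means of 4.09 and 2.10 and a read in 72.2% and 46.1% of cells. The others were *AGPAT5*, *GDF10*, a TGF-beta family ligand, *ADAMTSL4*, *CPD*, *SLC6A8*, *MAPRE1*, *NELL2* and *LRPAP1*, with differences from 1.47 to 1.74. Of these 10 genes, *CHRDL2* (222 against 72.0 rpm) and *NELL2* (86.0 against 31.6 rpm) were also at least 2-fold higher in pooled rpm, while *SLC6A8* was at 199 and 196 rpm.

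A mean of log values moves with the share of cells that have a read, and so with depth, which was higher in the 79 cells. After thinning to 50000 reads, *CRISPLD1* was seen in 90.0% of positive and 68.2% of remaining cells and *CHRDL2* in 44.7% and 26.4%. By the difference of these means the lower genes differed less. *PHYH*, a peroxisomal hydroxylase, led with means of 1.06 and 1.80, followed by *RIOK1*, *KDM3B*, *C1orf198*, *ANAPC7*, *MYSM1*, *OLFML2B*, *COMMD6*, *TFPT* and *PRKAB1*. In pooled rpm *KDM3B*, *C1orf198*, *ANAPC7*, *MYSM1*, *OLFML2B*, *TFPT* and *PRKAB1* were also at least 2-fold lower. *PRKAB1* was at 0.268 against 12.9 rpm (log2 ratio -5.58), while *PHYH*, *RIOK1* and *COMMD6* were within 2-fold.

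Cells were then grouped by each regulator in turn, with 3 or more reads among the 5343 non-notochordal cells. There were 144 *RUNX2*-positive (2.70%), 21 *RUNX3*-positive (0.393%), 1337 *MEF2C*-positive (25.0%) and 1426 *PTH1R*-positive cells (26.7%). The shares of the 3 larger sets were similar in the tags. *RUNX3*-positive cells made up 0.431, 0.675, 0.364 and 0.279% under A951 to A954, on 4, 6, 5 and 6 cells. *RUNX2*-positive cells made up 2.91, 2.70, 2.99 and 2.41% of the cells under A951 to A954, *MEF2C*-positive cells 22.7, 22.4, 26.0 and 26.5%, and *PTH1R*-positive cells 28.4, 27.3, 26.4 and 25.9%. Depth bears on these sets, since the median was 426717 reads in *RUNX2*-positive, 260108 in *MEF2C*-positive and 258884 in *PTH1R*-positive cells, against 199072 in all non-notochordal cells. No cell had 3 or more reads of 4 or more of the 5 genes, and 72 non-notochordal cells had 3 or more reads of 3 of them.

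*RUNX2* shared more cells with *PTH1R* and with *MEF2C* than expected within 10 classes of reads per cell. *RUNX2* and *PTH1R* were both positive in 89 cells, against 56.5 expected (pooled odds ratio 2.93). *RUNX2* and *MEF2C* were both positive in 82 cells against 54.1 (2.41), and *MEF2C* and *PTH1R* in 469 against 420 (1.29). *COL10A1* shared 3 cells with *RUNX2* against 3.79 (0.769), 29 with *MEF2C* against 25.4 (1.25) and 24 with *PTH1R* against 26.4 (0.865). The odds ratio of *COL10A1* with *MEF2C* was thus close to that of *MEF2C* with *PTH1R*. Depth still differs within a class, and *RUNX2*-positive cells were the deepest set, with a median of 426717 reads. The part of this remaining depth in the counts was not tested. These are counts of cells of 1 library, given without a test.

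**Figure D3:**
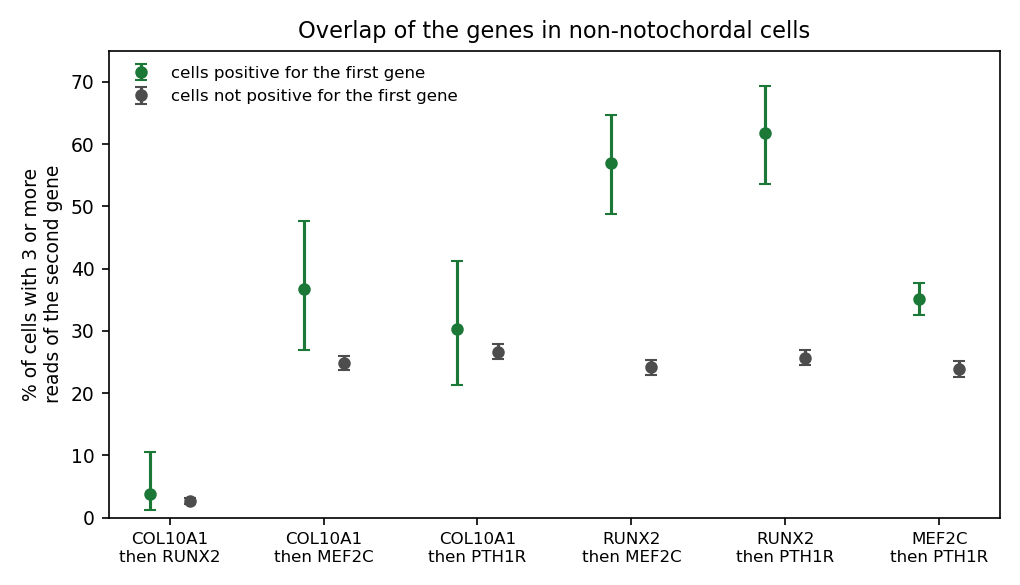
Share of non-notochordal cells with 3 or more reads of the second gene (vertical, %), among cells with 3 or more reads of the first gene (green) and all others (grey), for 6 pairs of genes; bars are 95% Wilson intervals for counting error and depth is not matched. Of *RUNX2*-positive cells 61.8% are *PTH1R*-positive against 25.7% of the others, while of *COL10A1*-positive cells 30.4% are *PTH1R*-positive against 26.6%.

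The levels were compared next. Over the 13486 genes compared, 5.01% were at least 2-fold higher and 12.2% at least 2-fold lower in *RUNX2*-positive cells. *PTH1R* was at 475, 961, 639 and 304 rpm in *RUNX2*-positive cells under A951 to A954, and at 105, 130, 87.9 and 70.7 rpm in the other non-notochordal cells. The 2 sets did not overlap across tags, and the pooled values of 537 and 88.7 rpm gave a 6.05-fold difference (log2 ratio 2.60, 2.58 to 2.61). *MEF2C* was at 91.0, 72.3, 84.9 and 176 rpm against 52.9, 59.8, 54.1 and 45.0 rpm, with a pooled log2 ratio of 1.23 that was between 0.27 and 0.78 under A951, A952 and A953 and 1.97 under A954. *COL10A1* was at 0.949 against 2.26 rpm (-1.25), and under A954 at 1.76 against 2.04 rpm. Without the highest cell on each side its log2 ratio was -2.30, whereas 2.08% (0.711 to 5.95%) of *RUNX2*-positive and 1.46% (1.17 to 1.83%) of the other cells had 3 or more *COL10A1* reads, so no order is read.

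Late hypertrophic and mineralising genes were high in *RUNX2*-positive cells. Of the 11 counted, 7 were at least 2-fold higher and *SP7*, with 5 reads, was at least 2-fold lower, and the median log2 ratio was 1.70, against -0.17 over all genes. The 11 include *IHH* and *MMP13*, which had a read in under 1% of kept cells and were not among the genes compared over all. *IBSP* was at 428 and 8.50 rpm (log2 ratio 5.65), *ALPL* at 51.1 and 1.74 rpm (4.87), *BGLAP* at 145 and 12.9 rpm (3.49), and *SPP1* at 2321 and 716 rpm (1.70). These 4 genes were higher within all 4 tags. *BGLAP* had 3 or more reads in 25.7% of *RUNX2*-positive and 2.67% of the other cells, *IBSP* in 11.1% and 1.15%, and *ALPL* in 7.64% and 1.02%.

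Some of these values rested on single cells. One cell held 57.2% of the *IBSP* reads of *RUNX2*-positive cells, and without the highest cell on each side the log2 ratio was 4.78. *IHH* had its 9 reads in 1 cell, and *MMP13* and *DMP1* had 3 or more reads in 2 and 9 cells. Without the highest cell on each side 5 of the 11 genes were at least 2-fold higher, and among the 1336 cells with most reads 7 were. The 4 osteoblast markers examined, *SP7*, *BGLAP*, *IBSP* and *DMP1*, belong to this list too. They summed to 585 rpm in *RUNX2*-positive and 26.9 rpm in the other cells, with *IBSP* the most abundant and *SP7*, the osteoblast transcription factor, at 0.0765 rpm. *COL2A1*, *ACAN* and *SOX9* together were at 29841 and 24091 rpm.

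Several of these genes were also high in *PTH1R*-positive cells, where 2.38% of 13495 genes were at least 2-fold higher and 2.63% at least 2-fold lower. Of the 11 genes, 6 were at least 2-fold higher and none lower. *IBSP* was at 79.6 and 3.95 rpm (log2 ratio 4.33), *ALPL* at 11.2 and 0.641 rpm (4.13) and *BGLAP* at 48.9 and 4.43 rpm (3.47), each higher within all 4 tags. The cell with most *IBSP* reads was the same in the *RUNX2*-, *PTH1R*- and *MEF2C*-positive sets, and held 45.8% of the *IBSP* reads of *PTH1R*-positive and 53.6% of those of *MEF2C*-positive cells. Without the highest cell on each side the log2 ratio of *IBSP* was 4.89 with *PTH1R* and 2.24 with *MEF2C*. *SPP1* was at 1190 and 593 rpm (1.01), *MMP13* at 0.518 and 0.0765 rpm (2.76), and *SP7* at 0.278 and 0.112 rpm (1.31) with 60.7% of its reads in 1 cell. The 2-fold difference of *SP7* rested on that cell. *RUNX2* was at 5.65 and 2.18 rpm (1.37), higher within all 4 tags, and *COL10A1* at 2.23 and 2.17 rpm (0.04).

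*MEF2C*-positive cells were compared in the same way. Here 2.70% of 13495 genes were at least 2-fold higher and 2.27% at least 2-fold lower. *SPP1* (1379 against 518 rpm), *IBSP* (72.0 against 9.75 rpm), *ALPL* (8.50 against 2.24 rpm) and *MMP13* (0.376 against 0.157 rpm) were at least 2-fold higher, and none of the 11 genes was lower. *RUNX2* was at 5.50 and 2.35 rpm (1.23) and *PTH1R* at 171 and 83.0 rpm (1.04), both higher within all 4 tags. *COL10A1* was at 3.14 and 1.73 rpm (0.86), with -0.10 under A951 and 2.01 under A952. The 21 *RUNX3*-positive cells, where 12.9% of 11792 genes were at least 2-fold higher and 29.1% at least 2-fold lower, had 3 reads or more of *RUNX2* in 1 cell and of *COL10A1* in none. Of the 8 late genes with a ratio there, 0 were at least 2-fold higher and 3 at least 2-fold lower, with a median log2 ratio of -0.02 against -0.27 over all genes. *IBSP* was at 47.6 and 29.9 rpm with all reads of the *RUNX3*-positive cells in 1 cell, and *BGLAP*, *DMP1* and *PHEX*, the 3 lower genes, had 2, 0 and 3 reads.

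**Figure D4:**
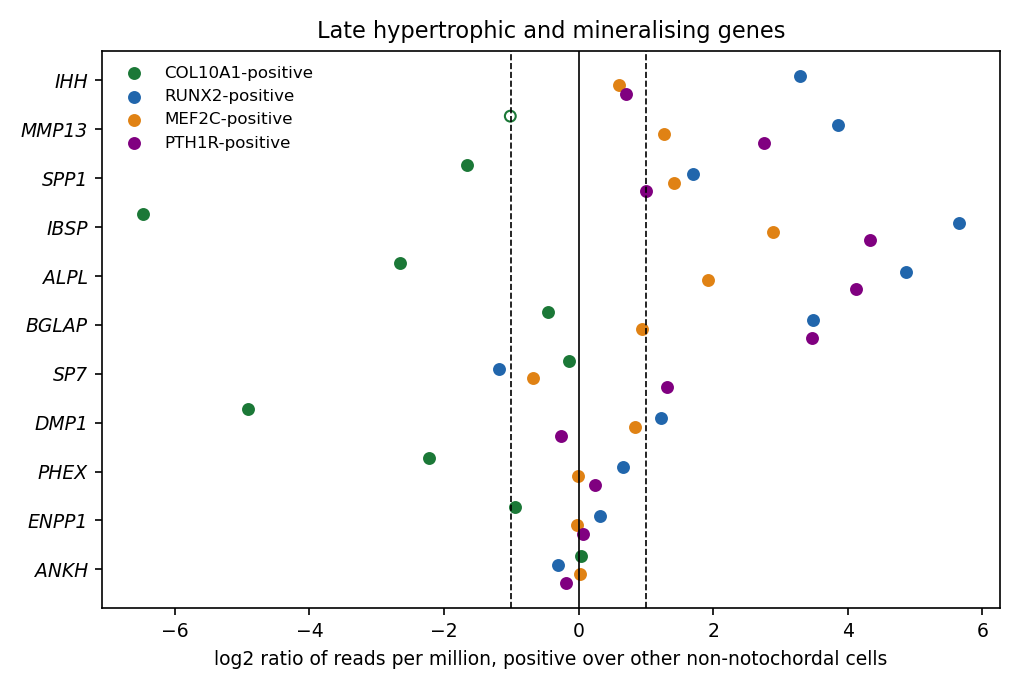
Log2 ratio of pooled rpm (horizontal) for 11 genes of late hypertrophy and mineralising matrix (vertical), in cells positive for *COL10A1* (green), *RUNX2* (blue), *MEF2C* (orange) or *PTH1R* (purple) over the other non-notochordal cells; dashed lines mark a 2-fold difference and the open circle a gene with fewer than 3 reads, set to 3. *IBSP* and *ALPL* are below -1 for *COL10A1* and above 1 for *RUNX2*, *MEF2C* and *PTH1R*. Few cells carry them, so the low *COL10A1* values rest on few cells. *IBSP* and *ALPL* have 3 or more reads in 0 and 2 of the 79 *COL10A1*-positive cells, and in 1.44% and 1.18% of remaining cells. *RUNX3*, with 21 positive cells, is not plotted, and *IHH* has 0 reads in *COL10A1*-positive cells and no green point.

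Among 11068 genes with a read in at least 5% of the cells, 1 gene had a correlation of 0.2 or more with any of the 5 genes over the 5653 cells. This was *IL17B*, a cytokine gene of the IL-17 family, with *PTH1R* (Pearson r = 0.26 of log2(rpm + 1), cells of 1 library that share differences in depth). *PTH1R* itself had r = 0.22 with the log2 reads of a cell. *IL17B* was at 371 rpm in *PTH1R*-positive and 5.49 rpm in other non-notochordal cells, which describes how it was chosen. By the same correlation *IL17B* ranked 1 for *RUNX2* (r = 0.19) and 3 for *MEF2C* (r = 0.14). Its levels with these genes are thus a description too. It was at 1543 and 54.8 rpm in *RUNX2*-positive and other cells (log2 ratio 4.81), with 3 or more reads in 46.5% and 3.77% of them. It was at 286 and 56.4 rpm with *MEF2C* (2.34) and at 4.18 and 134 rpm with *COL10A1* (-5.00). With *COL10A1* the shares of cells did not follow the level, since 29.1% of positive and 24.8% of remaining cells had a read, and 2.53% (0.697 to 8.77%) and 4.96% (4.40 to 5.58%) had 3 or more.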

How the data were processed

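TAS-seq reads were aligned by the authors to the cynomolgus genome using HISAT2 (2.2.1 per the submitters' processing notes), assigned them to whole genes with featureCounts (2.0.2), allowing reads that map to several places, and deposited counts of reads per gene and cell without molecular identifiers. The genome build was not given in the sources used here. PCR copies are therefore counted, and reads of near-identical genes can be shared. A second matrix of 1358 cells was not used.

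Cells with a single tag, 200 to 9000 genes and under 5% mitochondrial reads were kept. The tags marked 42 cells as doublets and 7 as untagged, which were left out, and the limits removed 21 more. Levels are pooled rpm. For the values over all genes, genes with a read in at least 1% of kept cells were compared. Genes of the lists were given a ratio without this limit, which *MMP13* and *IHH* did not meet. A side with under 3 reads was set to 3, and a log2 ratio of 1 or more either way counted as a 2-fold difference. Shares have Wilson intervals, a share of 0 the limit of 3 cells over all cells of the set, levels and ratios exact Poisson or binomial intervals. Python 3.11.15, numpy 2.4.6, scipy 1.17.1 and pandas 2.3.3 were used, and the calculations were tested on simulated data. There, genes without a difference and with a mean of 5 or more reads per cell could still pass 2-fold in either direction. This held for 0.506% of them in the notochordal comparison and 7.64% in that of *COL10A1*-positive cells.

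The genes, sets and lists were chosen with earlier results of these data known. Genes named are the 6 studied, examples from 5 lists, the 10 in each direction with the largest difference per cell (a read in 10% of the cells of 1 side, same direction in all tags), and correlated genes with r of 0.2 or more. Alternatives were other limits on cells and reads, other scalings, thinning, depth weights, and leaving out single cells or tags.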

Additional observations from a re-analysis of the deposited data

How the results depend on the processing

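Of the alternatives for the main counts, medians and shares, 136 values were within 1.5 times or within the counting error, 39 moved and 0 changed from a 2-fold difference to the other sign. For the single genes, 52 were the same, 37 moved and 1 changed so, *RUNX2* in notochordal against other cells, -1.59 without tag A952. Values within 2-fold also changed sign, such as those of *PTH1R* below and *RUNX3* in *COL10A1*-positive cells, 0.24 from 1 or more reads. The cause of the moves was not tested.

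In notochordal cells, the number of the 5 genes at least 2-fold higher was 1 with 5 or more *KRT19* and *TBXT* reads added together, and 1 to 2 with single tags left out. Their median log2 ratio was -0.13 with added reads, -0.049 with means over cells, -0.33 with cells weighted by depth, and -1.59 to -0.34 with single tags left out, A952 giving the lowest. *PTH1R* was at 0.20 without A952. Genes at least 2-fold higher or lower in *COL10A1*-positive cells numbered 397 and 1306 from 1 or more reads, and 442 and 1427 with genes seen in 5% of cells. Main values were 690 and 2250.

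The median of the 4 regulators in *COL10A1*-positive cells was -0.26 from 1 or more reads, -0.16 with means over cells, and -1.04 (without A954) to -0.46 with single tags left out. The number at least 2-fold lower was 1 with means over cells, 1 with depth weights and 0 to 2 with tags left out, 2 without A951 or A954. *PTH1R* was at 0.25 with means over cells. The share of cells with 3 or more *COL10A1* reads was 0.936% after thinning, 3.94% for 1 or more reads and 1.08% for 10 or more. Shares with 1 or more reads went, after thinning and from 3 reads, from 3.94% to 1.90% and 1.43% for *COL10A1*, from 27.4% to 8.34% and 2.81% for *RUNX2*, from 12.8% to 3.43% and 0.584% for *RUNX3*, from 44.9% to 28.2% and 24.1% for *MEF2C*, and from 45.8% to 30.6% and 26.8% for *PTH1R*.

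These alternatives for late genes were chosen after seeing the data. In *COL10A1*-positive cells 0 genes were higher and 5 to 7 lower under each. None of these alternatives bears on how few cells carry several of these genes, such as *IBSP* and *DMP1*. They thus cannot tell a lower level from a small set that holds few such cells. In *RUNX2*-positive cells 5 to 8 were higher, and the 1 lower gene became 0 from 10 reads, among the deepest cells, without the highest cells and, with tags left out, 0 to 1 (0 without A952). The lower genes were 0 to 2 for *MEF2C* and 0 to 1 for *PTH1R* with tags left out, the higher values without A951. No paired analysis was possible because the numbers in the labels belong to tissue samples that are not matched to tags, and no result comes from a test.

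Reads of 1 library from 2 monkeys limit all values. Monkeys and tissues were not compared, since the tags are not paired with tissues. Reads are not molecules, and the sets of 79, 144 and 21 cells give wide counting errors for rare genes.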
